A study of Mus musculus with 80 samples.

Results

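The acceptor of exon 7 of *Ptbp1*, the mouse gene of polypyrimidine tract binding protein 1, was edited with SpG-ABE8e or with SpG-ABEmax through the same sgRNA. The alleles found at that site are described here, the rare ones mostly in groups. The 9 samples were those of the series' 80 whose labels name sgRNA5, with 3 of SpG-ABE8e, 3 of SpG-ABEmax and 3 of control, so that membership did not depend on any measured value. All were Hepa1-6 cells, a hepatoma line from a C57L mouse, that received 400 ng of total DNA with 0.5 µl of Lipofectamine 2000 and were lysed after 5 d. Edited cells received sgRNA5 with 1 of the 2 editor plasmids, whereas control cells received the sgRNA and no editor. The labels give the older editor only as ABE, which is read here as ABEmax, and the legends call each sample an independent experiment. The methods name no selection for cells that carried the plasmids in this screen, so each percentage may include cells without an editor.

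In an adenine base editor, an adenosine deaminase is fused to a nickase form of Cas9 and turns adenine in the DNA strand displaced by the guide into inosine, read as guanine. ABEmax and ABE8e carry the same nickase with different versions of that deaminase, ABE8e being the faster enzyme, and SpG is a Cas9 variant that accepts NGN in place of NGG as the PAM, the short motif beside the target. Introns end in AG, and the spliceosome needs this dinucleotide to join the following exon. A change of its adenine to guanine therefore removes the splice acceptor. PTBP1 is itself a regulator of splicing that represses many exons of neuronal transcripts.

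The sequences below are given first because all later values refer to their positions. In transcript ENSMUST00000172282.8 of GRCm39, exon 7 covers chr10:79695615-79695789 on the plus strand, and its 175 bases are not a multiple of 3, with 1 base left over. The window of 40 bases in the allele tables matched 1 place in the genome, chr10:79695598-79695637. Its left part is the last 17 bases of intron 6 and its right part the start of exon 7. Positions are counted from 1 at the 5′ end of the protospacer, and bases upstream of it are numbered from −1 backwards. A change is written as the reference base, its position and the base read.
window, protospacer in capitals: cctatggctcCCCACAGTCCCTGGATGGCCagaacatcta
protospacer, adenines in capitals: cccAcAgtccctggAtggcc
A4G alone, changed base in capitals: cccGcagtccctggatggcc
A6G alone, changed base in capitals: cccacGgtccctggatggcc
A4G with A6G, changed bases in capitals: cccGcGgtccctggatggcc

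The protospacer lies at chr10:79695608-79695627 and is followed by the PAM AGA. Position 6 (79695613) is the adenine of the acceptor AG and the target of the sgRNA. Position 4 (79695611) is another intronic adenine, next to the run of cytosines that ends at position 3. Position 15 (79695622) is the only other adenine of the protospacer and lies in exon 7, where A15G would read as D241G. The window holds 2 AG dinucleotides, the acceptor itself at position 6 and the first bases of the PAM at position 21. Of the 30 annotated transcripts of the gene, 18 have an exon that begins at the targeted acceptor. In 1 transcript an exon begins 15 bases downstream, at 79695630, directly after that second AG.

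The 9 tables held 52976 reads, from 2591 to 8012 per sample with a median of 6579. They contained 210 distinct window contents, of which 125 occurred in 1 sample only and 103 were a single read. Only 4 of them reached a mean of 0.2% of reads in any group, namely the unchanged window and the 3 edited forms printed above. These 4 made up 98.5% to 99.2% of reads in every sample, and no other allele exceeded 0.112% of any sample. Single-sample percentages are given with Wilson 95% intervals, which cover counting error alone, since several PCR reads can come from the same molecule.

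SpG-ABE8e changed both intronic adenines of the protospacer, and in most edited reads it changed them together. SpG-ABEmax left 98.7 ± 0.348% (SD, n = 3) of windows unchanged, against 98.8 ± 0.129% in control, whereas SpG-ABE8e left 81.8 ± 4.42% unchanged. The unchanged share was 77.9%, 80.9% and 86.6% in the SpG-ABE8e samples. Every other sample lay at 98.4% or above.

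At the splice-site adenine, the SpG-ABE8e samples carried A6G in 17.8% (16.8 to 18.9), 15.2% (14.4 to 16.0) and 10.8% (10.2 to 11.5) of reads for replicates 1, 2 and 3. The SpG-ABEmax samples carried it in 0.0423% (3 reads; 0.0144 to 0.124), 0.579% (15 reads; 0.351 to 0.953) and 0.262% (12 reads; 0.150 to 0.458). In control it was read in 0.0152%, 0.0395% and 0.0224%, from 1, 3 and 1 reads. The 3 groups did not overlap, but SpG-ABEmax replicate 1 and control replicate 2 stood side by side with 3 reads each. Mean target editing was 14.6 ± 3.51% with SpG-ABE8e, 0.295 ± 0.270% with SpG-ABEmax and 0.0257 ± 0.0125% in control (SD, n = 3 each). Without SpG-ABEmax replicate 2, the excess of SpG-ABEmax over control dropped from 0.269 to 0.127 percentage points. The gain of SpG-ABE8e over SpG-ABEmax was 14.3 percentage points or 49.6-fold, with p = 0.1 in a two-sided exact permutation test, the smallest p that 3 samples against 3 allow. Without SpG-ABEmax replicate 2 the ratio was 95.9-fold, and over the other samples left out in turn it was 34.7-fold to 56.0-fold.

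At the bystander adenine, A4G was present in 17.2% (16.2 to 18.2), 14.8% (14.0 to 15.7) and 9.90% (9.26 to 10.6) of SpG-ABE8e reads. With SpG-ABEmax it was present in 0.0423%, 0.154% and 0.219%, from 3, 4 and 10 reads. Control samples gave 0.0760% and 0.0263%, from 5 and 2 reads, and 0 of 4459 reads in replicate 3, which allows up to 0.0673%. The SpG-ABE8e samples were separate from all others, whereas SpG-ABEmax and control overlapped (p = 0.2, exact permutation test). Group means were 14.0 ± 3.72%, 0.138 ± 0.0892% and 0.0341 ± 0.0386%, so that SpG-ABE8e exceeded SpG-ABEmax by 13.8 percentage points (p = 0.1, exact permutation test). In each SpG-ABE8e sample the splice-site adenine was changed slightly more often than its neighbour, by 0.607, 0.330 and 0.949 percentage points.

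The exonic adenine at position 15 was not changed above control at this depth. A15G was read in 1, 2 and 1 reads of the SpG-ABE8e samples, in 2, 0 and 0 reads of the SpG-ABEmax samples and in 2, 2 and 0 reads of the controls. The corresponding means were 0.0202 ± 0.00813%, 0.00941 ± 0.0163% and 0.0189 ± 0.0165% (p = 0.9 for SpG-ABE8e against control, exact permutation test).

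**Figure D1:**
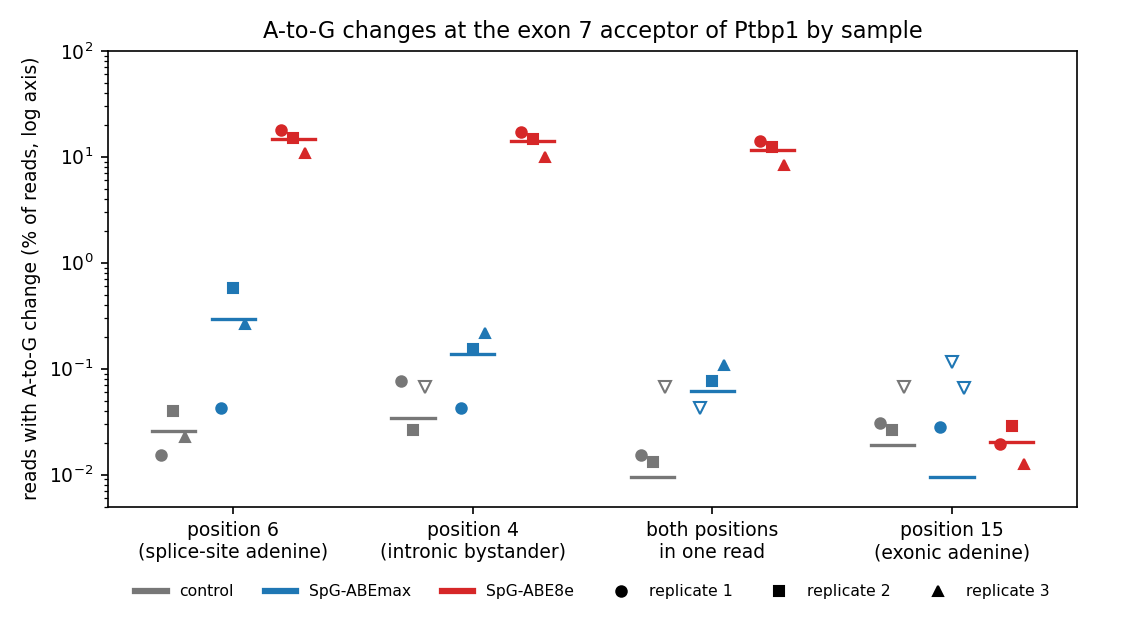
Share of reads with an A-to-G change at position 6, at position 4, at both positions in one read and at position 15, from left to right, in percent of reads on a log axis. Filled symbols are samples, horizontal lines are means of 3 samples with zeros counted, and open triangles stand at the limit of 3 reads for samples with 0 reads. The SpG-ABE8e samples lie between 8.31% and 17.8% for positions 6 and 4, alone or together, and overlap with control for position 15.

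Taking the 6 edited samples against the 3 controls, A6G was higher by 7.42 percentage points (p = 0.0238, exact permutation test, the smallest that this design allows). These 6 samples mix both editors, with mean A6G of 14.6% for SpG-ABE8e and 0.295% for SpG-ABEmax, so the pooled difference describes neither. They were pooled because 3 samples against 3 cannot reach a p under 0.05. In the same comparison A4G was higher by 7.02 percentage points (p = 0.0476, exact permutation test), although 1 edited sample lay below a control. SpG-ABEmax by itself overlapped control for A4G. The pooled p for A4G rose to 0.0714 or above when any 1 sample other than SpG-ABEmax replicate 1 was left out. Leaving out 1 control gave p = 0.0714 for A6G in the exact permutation test, again the smallest possible. Over 38 tests, 33 within this site and 5 between it and the exon 3 acceptor described below, no Benjamini-Hochberg adjusted p was under 0.165. Not part of these 38 are the tests of the gain over both acceptors, of bases outside the window and of the exon 3 acceptor by itself. The scan of single substitutions and the recalculations with other settings or with samples left out are not part of them either.

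Edited reads of SpG-ABE8e mostly carried the 2 changes together. A4G and A6G stood in the same read in 718 of 1069, 855 of 1238 and 666 of 996 reads that had either change, which is 67.2% (64.3 to 69.9), 69.1% (66.4 to 71.6) and 66.9% (63.9 to 69.7). Reads with A6G alone numbered 191, 203 and 203, and those with A4G alone 160, 180 and 127. The share with both was 67.7 ± 1.19% (SD, n = 3) and thus varied little. The share of all reads with either change ranged more widely over the same samples, at 20.9%, 17.8% and 12.4%.

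Of the SpG-ABE8e reads with A6G, 79.0%, 80.8% and 76.6% also had A4G. Of those with A4G, 81.8%, 82.6% and 83.98% also had A6G. If the 2 changes had been distributed over reads independently of each other, 3.06%, 2.25% and 1.07% of reads would have carried both. The observed shares were 14.1%, 12.3% and 8.31%. The expectation was taken over all reads, including any from cells without an editor. Such reads by themselves would raise the observed share above it, so the gap does not show that 1 change brings the other.

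The few edited reads of SpG-ABEmax had a different make-up. The 2 changes stood together in 0 of 6, 2 of 17 and 5 of 17 edited reads, which is 0% (0 to 39.03), 11.8% (3.29 to 34.3) and 29.4% (13.3 to 53.1). All 3 values were below the lowest SpG-ABE8e sample, with a difference of means of 54.0 percentage points (p = 0.1, exact permutation test). These shares rest on 40 reads, and the control samples held 10 reads with either change, of which 2 had both.

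Reads in which only the splice-site adenine was changed, called clean here, formed a minority with SpG-ABE8e. A6G was the only change in 20.9%, 19.0% and 22.7% of A6G reads with SpG-ABE8e, against 100%, 86.7% and 58.3% with SpG-ABEmax. The 2 groups did not overlap (the mean fell by 60.8 percentage points from SpG-ABEmax to SpG-ABE8e; p = 0.1, exact permutation test), although the SpG-ABEmax shares rest on 3, 15 and 12 reads. In terms of all reads, the clean product still made up more with SpG-ABE8e, at 3.02 ± 0.642% against 0.232 ± 0.240%.

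**Figure D2:**
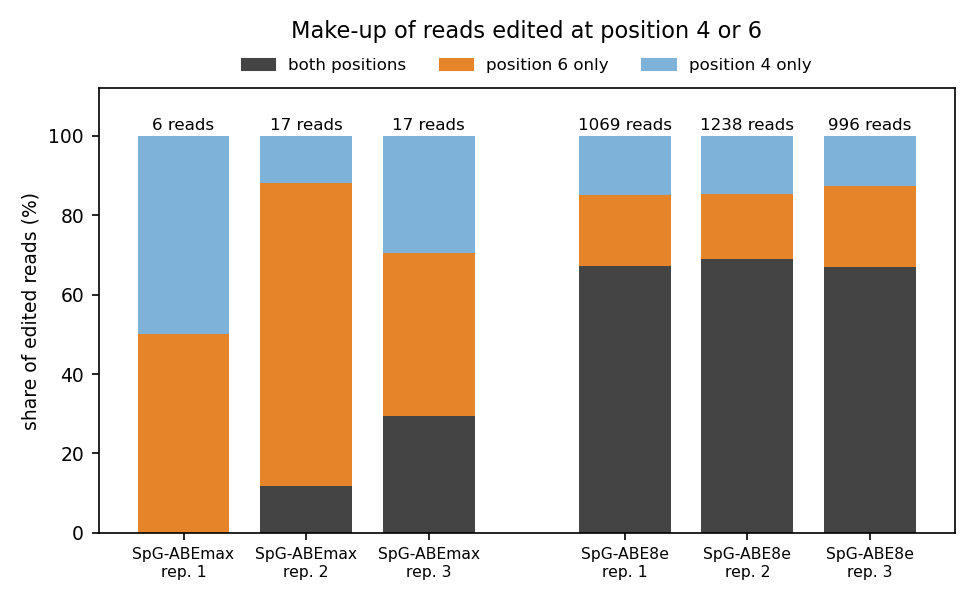
Make-up of the reads edited at position 4 or 6 in each edited sample, in percent of such reads, with their number above each bar. The share with both changes is 66.9% to 69.1% in the SpG-ABE8e samples and 0% to 29.4% in the SpG-ABEmax samples.

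All 40 positions were examined for every possible substitution, 120 in all. Substitutions whose 3 SpG-ABE8e samples all exceeded the 3 SpG-ABEmax samples numbered 2 (1.67% of those tested), and these were A4G and A6G. None was lower in all SpG-ABE8e samples (0%). Against control, 4 were higher in all SpG-ABE8e samples (3.33%), of which A21G and A30T were the other members beside A4G and A6G, and 4 were lower (3.33%). With SpG-ABEmax, 2 exceeded control (1.67%), A6G and A24G, and 1 was lower (0.833%). The adjusted p of each of these 120 substitutions was 1 in the exact permutation tests of the 3 comparisons.

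Outside A4G and A6G no difference from control in these counts exceeded 0.0583 percentage points. The highest mean of any other substitution was 0.0458% with SpG-ABE8e (T8C), 0.0540% with SpG-ABEmax (G22T) and 0.0631% in control (G-4T). A21G changes the adenine of the downstream AG that 1 transcript uses as its acceptor. It was read in 2, 3 and 2 reads with SpG-ABE8e, in 0, 1 and 1 reads with SpG-ABEmax and in 0, 0 and 1 reads in control, a difference that rests on single reads.

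Cytosines of the protospacer, which adenosine deaminases can also change to a small extent, were not altered above control. They were read as another base in 0.205 ± 0.117% of SpG-ABE8e reads, 0.176 ± 0.0216% of SpG-ABEmax reads and 0.279 ± 0.0317% of control reads. The control mean was the highest of the 3, although 1 SpG-ABE8e sample lay above every control at 0.330%. Control and SpG-ABEmax did not overlap (p = 0.1, exact permutation test). Reads with any substitution other than A4G and A6G made up 0.992%, 0.869% and 1.04% on average.

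Insertions and deletions were rare in all groups and more frequent with SpG-ABE8e. They were counted in 27, 32 and 19 reads of the SpG-ABE8e samples, which is 0.529%, 0.459% and 0.237% of reads. The SpG-ABEmax samples had 2, 3 and 2 such reads, or 0.0282%, 0.116% and 0.0437%, and the controls 5, 5 and 2, or 0.0760%, 0.0658% and 0.0449%. The SpG-ABE8e samples lay above all others, with a mean of 0.408 ± 0.152% against 0.0626 ± 0.0467% with SpG-ABEmax (difference 0.346 percentage points; p = 0.1, exact permutation test) and 0.0622 ± 0.0159% in control. SpG-ABEmax and control overlapped (p = 1, exact permutation test). With alleles of at least 2 reads only, the excess of SpG-ABE8e was 0.171 percentage points over SpG-ABEmax (p = 0.1, exact permutation test) and 0.157 over control (p = 0.2, exact permutation test). Indels at the expected nick alone differed by 0.127 percentage points between the editors, whose samples then overlapped (p = 0.2, exact permutation test). For each 100 reads with A6G there were 2.97, 3.02 and 2.19 indel reads in the SpG-ABE8e samples. The ratio ran the other way in the SpG-ABEmax samples, with 66.7, 20 and 16.7, which rest on 3, 15 and 12 reads with A6G and on indels at the level of control.

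The kinds of indel differed as well. In control, 9 of 12 indel reads lacked a single base, and 6 of these lacked a cytosine of the run that ends at position 3, the most frequent indel allele of the 9 samples together. With SpG-ABE8e, 16 of 78 indel reads lacked 1 base, 50 lacked more than 1 base with a median of 17.5 bases inside the window, and 12 had an insertion. SpG-ABEmax had 5 deletions of 1 base and 2 longer ones, and both of the latter came from replicate 2. Without deletions of 1 base, indels amounted to 0.392%, 0.387% and 0.187% with SpG-ABE8e, 0%, 0.0772% and 0% with SpG-ABEmax, and 0.0152%, 0.0263% and 0% in control.

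These indel reads were of many kinds, with 54 distinct alleles among the 78 reads of SpG-ABE8e. Of the 78, 29 reached the bases beside the expected nick between positions 17 and 18, where the nickase opens the strand bound by the guide, and 32 removed the target adenine at position 6. Deletions of both AG dinucleotides occurred in 14 reads. A total of 20 reached the edge of the window, so their full length is not visible there, and the longest number of deleted bases deposited for any of these reads was 71. Averaged over the SpG-ABE8e samples, positions 7 to 12 were each deleted in 0.191% to 0.210% of reads, from 37 to 41 reads, with no position clearly ahead of the others. Deletions covered the first base of the window in 0.0750% and the last in 0.0458%.

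The following indel alleles of SpG-ABE8e show the range of what was lost. The first had 3 reads in replicate 2 and none elsewhere, and extended beyond the left edge to a deposited length of 32 bases. The others had 2 reads in 1 sample each and were chosen after their values were seen, the second because it takes away the acceptor AG, the third because it spares both intronic adenines and removes the G of that AG with the first bases of exon 7, and the fourth as the insertion with the most inserted bases among those with 2 reads. Besides these, the whole window was deleted in 3 reads of SpG-ABE8e replicate 3, 1 read of SpG-ABE8e replicate 1 and 1 read of SpG-ABEmax replicate 2. Their deposited lengths ran from 48 to 73 bases, so these reads do not all lack the same bases.
deletion of positions −10 to 19, deleted bases in capitals: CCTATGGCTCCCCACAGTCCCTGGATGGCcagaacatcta
deletion of positions 3 to 12, deleted bases in capitals: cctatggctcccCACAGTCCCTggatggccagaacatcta
deletion of positions 7 to 15, deleted bases in capitals: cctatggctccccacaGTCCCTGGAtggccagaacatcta
insertion after position 10, inserted bases in capitals: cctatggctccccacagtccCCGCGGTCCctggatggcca

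The inserted 9 bases of the last allele equal positions 2 to 10 of the protospacer with A4G and A6G both made, next to a copy of the same stretch in which neither was made. In the same way, 1 read of SpG-ABE8e replicate 3 held the insertion ggtcc, which equals positions 6 to 10 with A6G, and 1 read of replicate 1 held ggtc, positions 6 to 9 with A6G. Insertions that as a whole equal an edited stretch beside an unedited copy thus occurred in every SpG-ABE8e sample, in 4 reads altogether. In 1 more read of replicate 1, the insertion ctgacggtcc after position 10 matched only at its end, where acggtcc equals positions 4 to 10 with A6G. Which of the 2 copies was the added one cannot be told from the alignment. Edits and indels were otherwise seldom seen in one read, with A4G or A6G beside an indel in 2, 0 and 3 reads of the 3 SpG-ABE8e samples. However, 29 indel reads lacked position 4 and 32 lacked position 6, and these could not show a change there. In 2 other reads of replicate 1, aligned as A6C with a G inserted after position 7, the sequence reads equally as A6G with an inserted C.

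**Figure D3:**
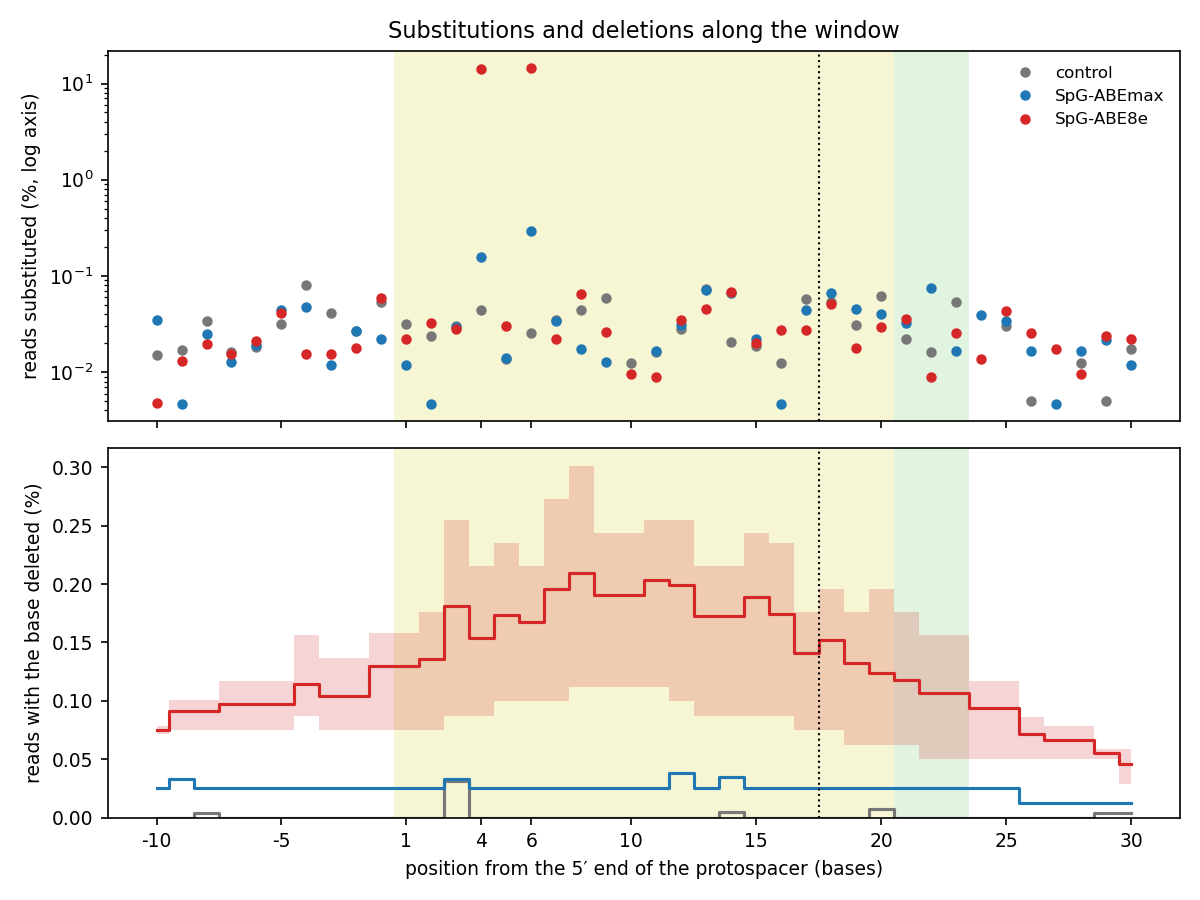
Mean share of reads of 3 samples substituted (upper panel, log axis, zeros not drawn) or deleted (lower panel) at each of the 40 positions, in percent of reads. The yellow band is the protospacer, the green band the PAM, the dotted line the expected nick, and the red shading the lowest to highest SpG-ABE8e sample. Positions 4 and 6 stand apart in the upper panel, and the SpG-ABE8e deletions in the lower panel form a broad plateau over positions 7 to 12, at 0.191% to 0.210%.

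The acceptor of exon 3, edited in the samples labelled sgRNA2 with the same 2 editors in 3 samples each, is the most similar site of the series. The paper's oligo list gives this protospacer under another sgRNA number than the labels do. The site was therefore taken from the reference sequence of the allele tables. The target adenine of this acceptor also stands at position 6, but no adenine stands at position 4, as its protospacer at chr10:79694579-79694598 with the PAM AGC shows.
exon 3 acceptor protospacer, target adenine in capitals: ttctcAgcggggatccgacg

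Target editing there was 36.2 ± 1.59% with SpG-ABE8e, 2.20 ± 0.215% with SpG-ABEmax and 0.214 ± 0.146% in control (SD, n = 3). For each editor, every exon 7 acceptor sample lay below every exon 3 acceptor sample, with a difference of means of −21.6 percentage points for SpG-ABE8e and −1.90 for SpG-ABEmax (p = 0.1 each, exact permutation tests). The gain from SpG-ABEmax to SpG-ABE8e averaged 24.1 percentage points over the 2 acceptors (p = 0.005, exact permutation test over 400 arrangements within sites, the smallest possible). It was 14.3 percentage points at the exon 7 acceptor and 34.0 at the exon 3 acceptor, a difference of −19.6 percentage points. Exchanging editor labels within sites cannot test this difference, because both gains are large and of the same sign, so no p is given for it. Its direction depended on the scale, since the ratio of means was 49.6-fold at the exon 7 acceptor and 16.5-fold at the exon 3 acceptor. On log2 odds the gain was 6.38 and 4.65, with a difference of 1.74 in the other direction, for which no p is given either.

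The clean share of target-edited reads separated the 2 acceptors further. With SpG-ABE8e, A6G was the only change of the window in 97.5%, 97.0% and 97.0% of A6G reads at the exon 3 acceptor, but in 20.9%, 19.0% and 22.7% at the exon 7 acceptor (p = 0.1, exact permutation test). Of all reads, this left 35.1% with the clean product at the former and 3.02% at the latter.

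Indels ordered the 2 editors differently at the 2 acceptors. At the exon 3 acceptor they were counted in 0.535%, 0.308% and 0.417% of SpG-ABEmax reads and in 0.298%, 0.269% and 0.162% of SpG-ABE8e reads, from 7 to 12 and from 3 to 6 reads per sample. There every SpG-ABEmax sample lay above every SpG-ABE8e sample, whereas at the exon 7 acceptor every SpG-ABE8e sample lay above every SpG-ABEmax sample. The contrast of SpG-ABE8e with SpG-ABEmax was 0.346 percentage points at the exon 7 acceptor and −0.177 at the exon 3 acceptor. These differed by 0.523 percentage points. The comparison was chosen after this opposite order had been seen, so the difference is given as a description, without a p. Without deletions of 1 base, the 2 editors overlapped at the exon 3 acceptor (0.490%, 0.264% and 0.358% with SpG-ABEmax, 0.298%, 0.135% and 0.162% with SpG-ABE8e; p = 0.2, exact permutation test). SpG-ABE8e alone did not separate the acceptors in its indels (0.408% against 0.243%; p = 0.3, exact permutation test).

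**Figure D4:**
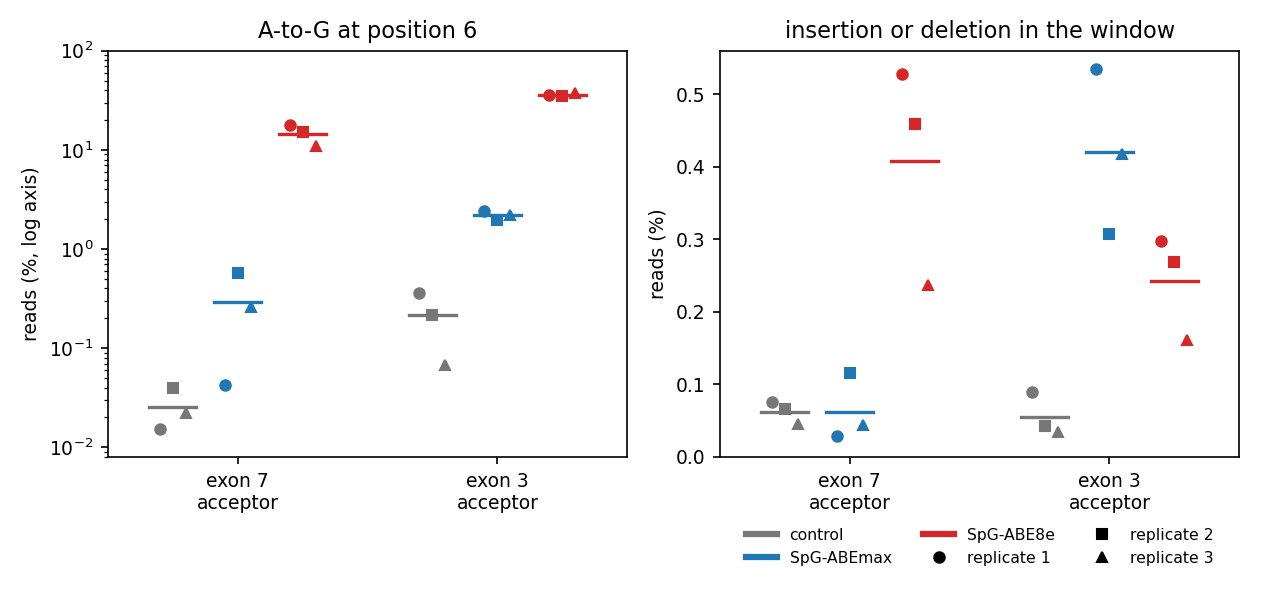
Target editing at position 6 (left, percent of reads on a log axis) and indels in the window (right, percent of reads) at the acceptors of exons 7 and 3. Symbols are samples and horizontal lines are means of 3 samples. Target editing is higher with SpG-ABE8e at both sites, whereas indels are higher with SpG-ABE8e at exon 7 and with SpG-ABEmax at exon 3.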

How the data were processed

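Target sites were amplified from genomic DNA by PCR in 2 steps and sequenced on an Illumina MiSeq. The authors aligned the reads to amplicon references with CRISPResso2, whose version is not given in the sources used here. They deposited, for each allele of a window of 40 bases, a count of reads without normalization and its percent of the reads of that sample, and how many bases it had inserted, deleted or substituted. These deposited numbers reach beyond the window, so alleles were read from the aligned sequences.

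Samples were grouped by the labels. Members, lists and tests were chosen with earlier results of these data known. No genome build is named for the amplicons. Windows were matched to GRCm39 with the GENCODE M39 annotation. All reads of a table were the denominator. Rows with the same window content were added up. An indel is any inserted or deleted base in the window, and 3 reads were taken as the limit for a count of 0. Groups were compared by two-sided exact permutation tests over samples, the smaller tail doubled, with Benjamini-Hochberg adjustment. No pair of tables was identical. The tests measure the spread between these samples, and the labels name no batch.

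Named in the text were the 3 protospacer adenines, the cytosines as a group, other substitutions at least 0.2 percentage points above the highest control, alleles with a mean of at least 0.2% in a group, and indel alleles with at least 3 reads in a sample. Other names were chosen after their values were seen. The calculation recovered all rates in 60 simulated tables of 5000 reads. Alternatives were reads without indels, alleles with at least 2 reads or 0.2% of reads, log2 odds with 0.5 reads added, summed reads, a block of replicate numbers and leaving out each sample. Python 3.11.15, numpy 2.4.6, scipy 1.17.1, pandas 2.3.3 and matplotlib 3.10.9 were used.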

Additional observations from a re-analysis of the deposited data

Results flagged for a closer look

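At the exon 7 acceptor every SpG-ABE8e sample had more indels than every SpG-ABEmax sample, and at the exon 3 acceptor the order was the opposite. The contrast of SpG-ABE8e with SpG-ABEmax was 0.523 percentage points larger at the exon 7 acceptor. The comparison was chosen because this order was seen, so no p is given for the difference. Without deletions of 1 base the contrast was 0.469 percentage points larger, but at the exon 3 acceptor the editors then overlapped (−0.172 percentage points; p = 0.2, exact permutation test). Each sample's share rests on 2 to 32 indel reads.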

How the results depend on the processing

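Of 243 recalculations of 21 results, 210 kept the direction and the side of the threshold or stayed near the value. For 3 samples against 3 this speaks of the direction alone, since no p could be under 0.1. The excess of A6G with SpG-ABEmax over control, for example, was 0.169 percentage points with alleles of at least 0.2% of reads (p = 1, exact permutation test). The small difference in indels between SpG-ABEmax and control (0.000341 percentage points) turned to −0.0146 with alleles of at least 2 reads, to −0.128 on log2 odds and to −0.0153 with summed reads, and ranged from −0.0263 to 0.0175 when 1 sample was left out. On log2 odds the difference in gain between the acceptors turned to 1.74, as given above. With alleles of at least 0.2% of reads, no indel and no A4G of SpG-ABEmax or control was left to compare. The 6 edited samples exceeded controls by 7.41 percentage points for A6G (p = 0.238, exact permutation test) and by 7.01 for A4G (p = 0.476, exact permutation test) under that limit. Leaving out 1 sample gave 5.36 to 8.91 for A6G and 4.998 to 8.43 for A4G.

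Counts of substitutions whose groups did not overlap moved to 4 to 8 for SpG-ABE8e above SpG-ABEmax, 5 to 8 for SpG-ABE8e above control and 2 to 8 for SpG-ABEmax above control when 1 sample was left out, since groups of 2 are separated more easily. With alleles of at least 2 reads, the counts against control were 2 and 1.

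Whether replicate numbers pair the samples could not be decided with 3 samples per group. Deviations of samples with the same number correlated at −0.80 to 0.53, with 3 of 9 over 0.1. Those of samples with different numbers correlated at −0.71 to 0.79, with 6 of 18 over 0.1. With the replicate number as a block the values stayed as they were, and no p of a single comparison could be under 0.25. The 6 edited samples then exceeded controls by 7.42 percentage points for A6G and 7.02 for A4G (p = 0.25 each, exact permutation tests).

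Depth limits what can be said of SpG-ABEmax, with 30 reads that carried A6G and 7 with an indel.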

Other observations

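Bases outside the window also differed between groups. Reads for which more substituted bases were deposited than the window shows made up 6.55% to 7.30% of control samples, 5.19% to 5.99% of SpG-ABEmax samples and 5.67% to 6.31% of SpG-ABE8e samples. All 6 edited samples thus lay below the 3 controls (difference of means −1.23 percentage points, p = 0.0238, exact permutation test, not adjusted). The comparison was not among those planned, and this p is the smallest that 6 samples against 3 allow. At the exon 3 acceptor the same share averaged 8.82% in control, 8.89% with SpG-ABEmax and 9.75% with SpG-ABE8e, so there the edited means lay above control.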
